A study of Homo sapiens with 6 samples.

Results

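The D cyclins CCND1, CCND2 and CCND3, the E cyclins CCNE1 and CCNE2, the CIP/KIP inhibitors CDKN1A, CDKN1B and CDKN1C and the INK4 inhibitors CDKN2A and CDKN2B were read from an expression table of DU145 cells. They were chosen by symbol as the cyclins and cyclin-dependent kinase inhibitors that act before S phase, and they are 10 of the 19727 genes in the table. DU145 is an established human prostate cancer line, which is known to lack functional RB1 protein and to carry mutant p53. Cells that carried lentivirus-circCSPP1, a vector for the circular RNA circCSPP1 (labelled as circCSPP1 overexpression), were compared with cells that carried the control lentivirus-NC (labelled as normal), with 3 libraries in each group. Both lines were stable lines selected with puromycin, and the sources do not say whether a line was a single clone or whether the 3 libraries came from separate cultures. The p-values therefore measure the spread between these libraries, which may be technical. Values are FPKM (fragments per 1000000 fragments of the library and per kilobase of transcript), so levels of different genes are compared per length.

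D cyclins bind CDK4 and CDK6 in early G1, and E cyclins bind CDK2 near the G1/S boundary. The classical substrate of these kinases is the RB1 protein, which holds E2F factors in check until it is phosphorylated. INK4 proteins (p16 from CDKN2A, p15 from CDKN2B) bind CDK4 and CDK6 and keep D cyclins off them, while CIP/KIP proteins (p21 from CDKN1A, p27 from CDKN1B, p57 from CDKN1C) bind cyclin and kinase together. Cells without RB1 are known for high p16, and p16 does not stop them from cycling.

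CCND1 rose with lentivirus-circCSPP1, from 144 ± 10.6 FPKM to 240 ± 14.3 FPKM (SD, n = 3 in each group), and of the members tested it alone passed an adjusted p of 0.05 in limma. CDKN1A had the highest ratio of the means among the members tested, 2.04, but its libraries were spread widely and it did not pass. CDKN2A was the most abundant member in all 6 libraries, and CCND2 was nearly silent in all 6. Of the 10 members, 9 had a mean of at least 1 FPKM and were tested. Of those 9 members 1 was called, where 11.4% of the 12322 genes tested were called (4.69% higher, 6.66% lower), so the share of members called was near that of the table.

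The groups did not overlap for 6 of the 9 members tested, and over all genes tested they did not overlap for 36.4% (16.0% higher and 20.5% lower with lentivirus-circCSPP1). CCND1, CDKN1A, CDKN2A and CDKN2B were higher in each lentivirus-circCSPP1 library than in each lentivirus-NC library, CCNE1 and CDKN1C were lower, and CCND3, CCNE2 and CDKN1B overlapped. The median log2 fold change of the 9 members was 0.116, and that of all genes tested was -0.028. Fold changes are differences of log2(FPKM + 1), lentivirus-circCSPP1 minus lentivirus-NC, and understate the change of genes with low values.

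**Figure D1:**
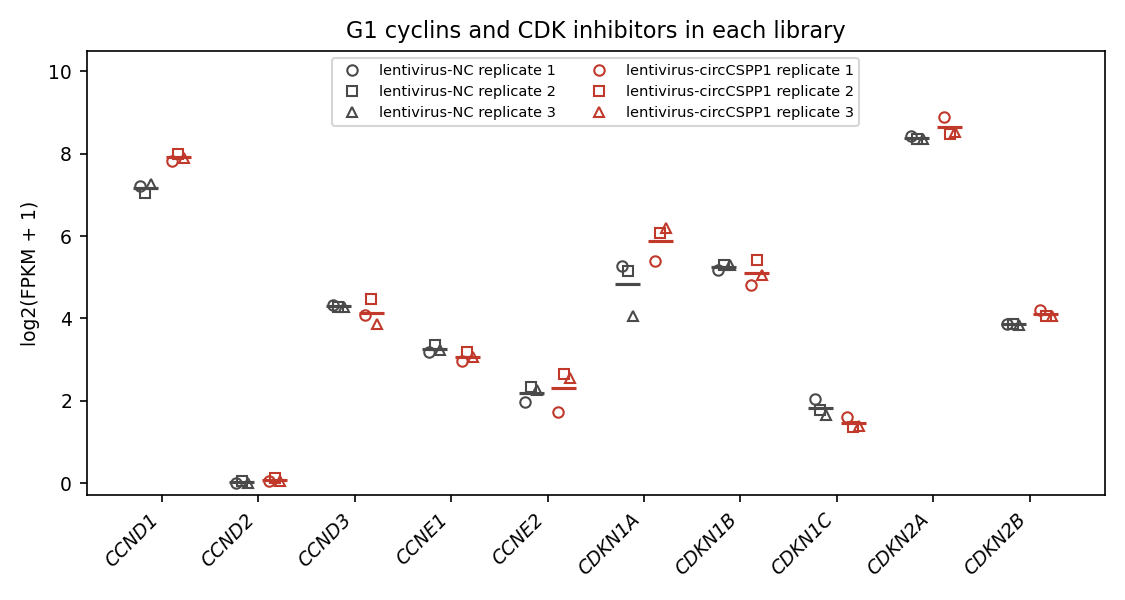
Levels of each of the 10 members by library. Points are libraries and horizontal bars are group means. The 3 lentivirus-circCSPP1 values of CCND1, 226.92 to 255.38 FPKM, sit above the 3 lentivirus-NC values, 131.71 to 151.79 FPKM. The values of CCND3, CCNE2 and CDKN1B overlap.

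The 6 libraries held about 28800000 to 36700000 fragments each, as computed from the steps of their low values. The lentivirus-circCSPP1 replicate 1 library stood apart from the other libraries of its group: its log2 values correlated at 0.9697 and 0.979 with those of replicates 2 and 3. Replicates 2 and 3 correlated with each other at 0.9898, against 0.9914 to 0.9915 within lentivirus-NC. With the lentivirus-NC libraries, replicate 1 correlated at 0.9697 to 0.9719, and replicates 2 and 3 at 0.9729 to 0.9784. The deviation of replicate 1 from the other libraries of its group followed the GC content of transcripts (r = 0.73 over 12305 genes, a description across genes, which are not independent). The same correlation was -0.65 and -0.35 in lentivirus-circCSPP1 replicates 2 and 3, whose deviations are taken from a mean that holds replicate 1, and -0.041 to 0.067 in the lentivirus-NC libraries. Among the 9 members tested, that library's deviation from the mean of replicates 2 and 3 on the log2 scale was lowest for CCNE2 (-0.88, 36.9% GC), followed by CDKN1A (-0.74, 58.1% GC), and highest for CDKN2A (0.39, 61.4% GC). Over these 9 members the deviation and GC content had r = 0.551 and rho = 0.55. The part of GC content in the members' results was tested only by a loess correction of each library, and members' results that move without that library are given below with both values. Without it, 28.5% of all genes tested were called.

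**Figure D2:**
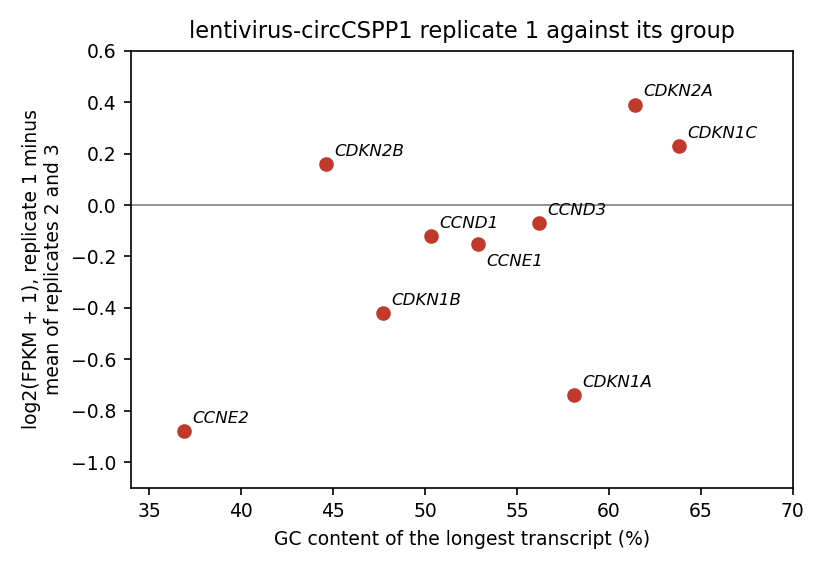
Deviation of lentivirus-circCSPP1 replicate 1 from the mean of replicates 2 and 3 (log2 scale, vertical axis) against transcript GC content in percent (horizontal axis) for the 9 members tested, with 1 labelled point per gene. CCNE2, the member with the lowest GC content, lies lowest at -0.88, and CDKN2A lies highest at 0.39.

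The labelled cell type was checked with marker lists. Of the 5 epithelial markers, EPCAM, CDH1, KRT8, KRT18 and KRT19 were all expressed and all fell with lentivirus-circCSPP1, and their summed level was 2270 to 2360 FPKM in lentivirus-NC, against 1050 to 1280 FPKM with lentivirus-circCSPP1. Of the 5 androgen-responsive luminal markers, KLK2 and KLK3 were at 0 in all 6 libraries and 1 was tested. Summed markers of leukocytes (0.05 to 0.46 FPKM against 0.27 to 0.72 FPKM) and of endothelial cells (0.32 to 0.68 FPKM against 0.16 to 0.69 FPKM) were near 0, and those of fibroblasts were 2.77 to 4.19 FPKM against 1.04 to 2.27 FPKM. The part of the epithelial change in the members' results was not tested. In bulk RNA, a change in the share of cells that express a gene and a change in the level per cell cannot be told apart.

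CCND1 encodes cyclin D1, the D cyclin that mitogen signalling induces in most epithelial cells. Its gene lies on chromosome 11 at 69641087 to 69654474 on the plus strand (GRCh38, GENCODE release 29). In replicates 1 to 3 of lentivirus-NC its level was 147.55, 131.71 and 151.79 FPKM, and it was 226.92, 255.38 and 238.52 FPKM in those of lentivirus-circCSPP1. The lowest lentivirus-circCSPP1 library lay well above the highest lentivirus-NC library. The log2 fold change was 0.74 (SE 0.0863, 95% interval 0.54 to 0.94, limma adjusted p = 0.0045), a ratio of the means of 1.67. An exact two-sided permutation test gave p = 0.1, the smallest p that 3 libraries against 3 allow. Under 17 alternative settings the log2 fold change stayed between 0.68 and 0.78 and the limma adjusted p between 0.0013 and 0.031. The rise was below the absolute log2 fold change of 1.5 at which the study selected genes. In the limma fit on log2(FPKM + 1), 24 genes, 0.195% of those tested, passed that threshold with an unadjusted p under 0.01. How the study computed its fold changes is not given in the sources used here, so this count may differ from its own.

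Of the other D cyclins, CCND3 did not pass the test and CCND2 was too low to test. CCND3 (chromosome 6, 41934933 to 42050357, minus strand), the D cyclin prominent in blood cells, measured 18.94, 18.25 and 18.53 FPKM in lentivirus-NC, against 16.07, 21.27 and 13.46 FPKM with lentivirus-circCSPP1. Its lentivirus-NC values were tight and lay inside the wider range of the other group. The log2 fold change was -0.15 (95% interval -0.52 to 0.22, limma adjusted p = 0.59), and it was -0.13 without lentivirus-circCSPP1 replicate 1 (limma adjusted p = 0.62). CCND2 (chromosome 12, 4273772 to 4305350, plus strand) was listed at 0, 0.03 and 0 FPKM in lentivirus-NC, against 0.03, 0.09 and 0.03 FPKM with lentivirus-circCSPP1. On the longest annotated transcript these values correspond to roughly 0, 6 and 0 fragments and 6, 20 and 6 fragments, so the gene was not tested and no fold is given.

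Cyclin D1 made up most of the D cyclin message, and more of it with lentivirus-circCSPP1. Summed over the 3 genes, D cyclins were 162 ± 10.8 FPKM in lentivirus-NC, against 257 ± 17.5 FPKM with lentivirus-circCSPP1 (SD, n = 3). CCND1 was 88.6%, 87.8% and 89.1% of that sum in lentivirus-NC and 93.4%, 92.3% and 94.6% in lentivirus-circCSPP1. The lowest share in the overexpressing cells thus exceeded the highest in the control cells, and the share of CCND3 was 10.9% to 12.2% in the control cells and 5.34% to 7.69% in the overexpressing cells.

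CCNE1, which encodes cyclin E1, is on chromosome 19 at 29811898 to 29824308 on the plus strand. It measured 8.15, 9.29 and 8.41 FPKM in lentivirus-NC, against 6.85, 8.13 and 7.3 FPKM with lentivirus-circCSPP1. The groups did not overlap, but the highest overexpressing library nearly reached the lowest control. The log2 fold change was -0.19 (SE 0.112, 95% interval -0.45 to 0.07, limma adjusted p = 0.31). Without lentivirus-circCSPP1 replicate 1 it was -0.14 (limma adjusted p = 0.29).

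CCNE2, which encodes cyclin E2, is on chromosome 8 at 94879770 to 94896678 on the minus strand. It measured 2.94, 4.08 and 3.77 FPKM in lentivirus-NC, against 2.29, 5.32 and 4.84 FPKM with lentivirus-circCSPP1. Replicate 1 of lentivirus-circCSPP1 was the lowest of all 6 libraries and the other 2 of its group were the highest. The log2 fold change was 0.12 (95% interval -0.47 to 0.7, limma adjusted p = 0.81), and it was 0.41 without that library (limma adjusted p = 0.062) and -0.06 without replicate 2 of the same group. Of the exon bases of CCNE2, 37.0% also lie in exons of INTS8 on the opposite strand. Whether counting used strand is not given in the sources used here, so reads of these 2 genes may not have been told apart. INTS8, a subunit of the Integrator complex, measured 58.79, 56.31 and 53.93 FPKM in lentivirus-NC, against 22.94, 43.17 and 39.77 FPKM with lentivirus-circCSPP1 (log2 fold change -0.71, limma adjusted p = 0.079).

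The E cyclins together were far below the D cyclins, at 12.2 ± 1.14 FPKM in lentivirus-NC, against 11.6 ± 2.21 FPKM with lentivirus-circCSPP1 (SD, n = 3). CCNE1 held 69.0% to 73.5% of this sum in the control cells. In lentivirus-circCSPP1 it held 74.9%, 60.4% and 60.1%, so replicate 1 lay on the control side and the other 2 below it.

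CDKN1A encodes p21, an inhibitor induced by p53 and by several p53-independent routes. The gene is on chromosome 6 at 36676460 to 36687339 on the plus strand. It measured 37.34, 34.74 and 15.55 FPKM in lentivirus-NC, against 41.01, 66 and 72.17 FPKM with lentivirus-circCSPP1. Replicate 3 of lentivirus-NC was low for its group, and replicate 1 of lentivirus-circCSPP1 was only slightly above the highest control. The means were 29.2 ± 11.9 FPKM and 59.7 ± 16.5 FPKM, and the log2 fold change was 1.06 (SE 0.346, 95% interval 0.25 to 1.87, unadjusted p = 0.0168, limma adjusted p = 0.092). The call turned on single libraries: without lentivirus-circCSPP1 replicate 1 the log2 fold change was 1.31 (limma adjusted p = 0.039), and without lentivirus-NC replicate 3 it was 0.67 (limma adjusted p = 0.18).

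CDKN1B encodes p27, whose level is set largely by protein breakdown. The gene, on chromosome 12 at 12715058 to 12722371 on the plus strand, measured 34.83, 38.3 and 38.45 FPKM in lentivirus-NC, against 27.22, 41.99 and 32.05 FPKM with lentivirus-circCSPP1. The groups overlapped, and the log2 fold change of -0.16 (95% interval -0.52 to 0.21, limma adjusted p = 0.56) was -0.02 without lentivirus-circCSPP1 replicate 1. CDKN1C encodes p57, an imprinted inhibitor, and lies on chromosome 11 at 2883213 to 2885773 on the minus strand. It measured 3.1, 2.45 and 2.14 FPKM in lentivirus-NC, against 2.03, 1.57 and 1.61 FPKM with lentivirus-circCSPP1. The groups did not overlap, and the log2 fold change was -0.38 (SE 0.138, 95% interval -0.7 to -0.05, unadjusted p = 0.0279, limma adjusted p = 0.12). Without lentivirus-circCSPP1 replicate 1 it was -0.45 (limma adjusted p = 0.052). After the correction for GC content and length it was -0.37 (limma adjusted p = 0.055).

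The ratio of p21 to p27 message did not overlap between the groups. This ratio was not tested, and neither gene passed on its own (limma adjusted p of 0.092 for CDKN1A and 0.56 for CDKN1B). The ratio of CDKN1A to CDKN1B was 1.07, 0.907 and 0.404 in lentivirus-NC and 1.51, 1.57 and 2.25 in lentivirus-circCSPP1. CDKN1A was 49.6%, 46.0% and 27.7% of the summed CIP/KIP message in the control cells and 58.4%, 60.2% and 68.2% in the overexpressing cells. The CIP/KIP sum itself overlapped, with 75.27, 75.49 and 56.14 FPKM against 70.26, 109.56 and 105.83 FPKM. In the replicate 1 library of lentivirus-circCSPP1, CDKN1A and CDKN1B were both lower than in the other 2 of its group, and their ratio there lay near that of replicate 2.

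**Figure D3:**
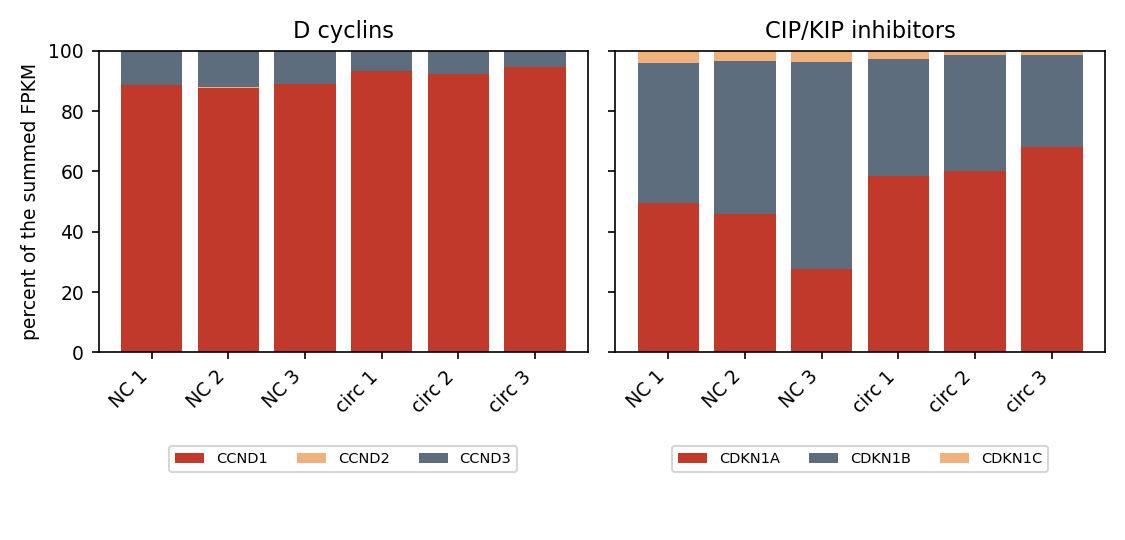
Shares of members in their family's summed FPKM, in percent, as stacked bars for the 6 libraries (NC 1 to NC 3 are lentivirus-NC, and circ 1 to circ 3 are lentivirus-circCSPP1). CCND1 takes 87.8% to 89.1% of the D cyclins in lentivirus-NC and 92.3% to 94.6% in lentivirus-circCSPP1. CDKN1A takes 27.7% to 49.6% and 58.4% to 68.2% of the CIP/KIP inhibitors.

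CDKN2A encodes p16 and, from another reading frame, ARF, and a gene-level value does not separate them. The gene, on chromosome 9 at 21967753 to 21995301 on the minus strand, measured 346.24, 328.8 and 325.98 FPKM in lentivirus-NC, against 476.68, 356.56 and 369.92 FPKM with lentivirus-circCSPP1. Replicate 1 of lentivirus-circCSPP1 stood far above the rest, and the other 2 of its group were just above the controls. The log2 fold change was 0.25 (SE 0.115, 95% interval -0.02 to 0.52, limma adjusted p = 0.2). Without that library it was 0.12 (limma adjusted p = 0.1), and after the correction for GC content and length it was 0.24 and passed (limma adjusted p = 0.0091).

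CDKN2B, which encodes p15 and is known as a TGF-beta target, lies 7602 bases from CDKN2A on chromosome 9, at 22002903 to 22009363 on the minus strand. It measured 13.45, 13.67 and 13.34 FPKM in lentivirus-NC, against 17.53, 15.57 and 15.61 FPKM with lentivirus-circCSPP1. The control libraries agreed closely and all 3 overexpressing libraries were above them. The log2 fold change was 0.25 (SE 0.097, 95% interval 0.02 to 0.48, limma adjusted p = 0.14), and it was 0.2 without lentivirus-circCSPP1 replicate 1 (limma adjusted p = 0.07). CDKN2B kept 3.55% to 4.18% of the INK4 message in all 6 libraries.

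**Figure D4:**
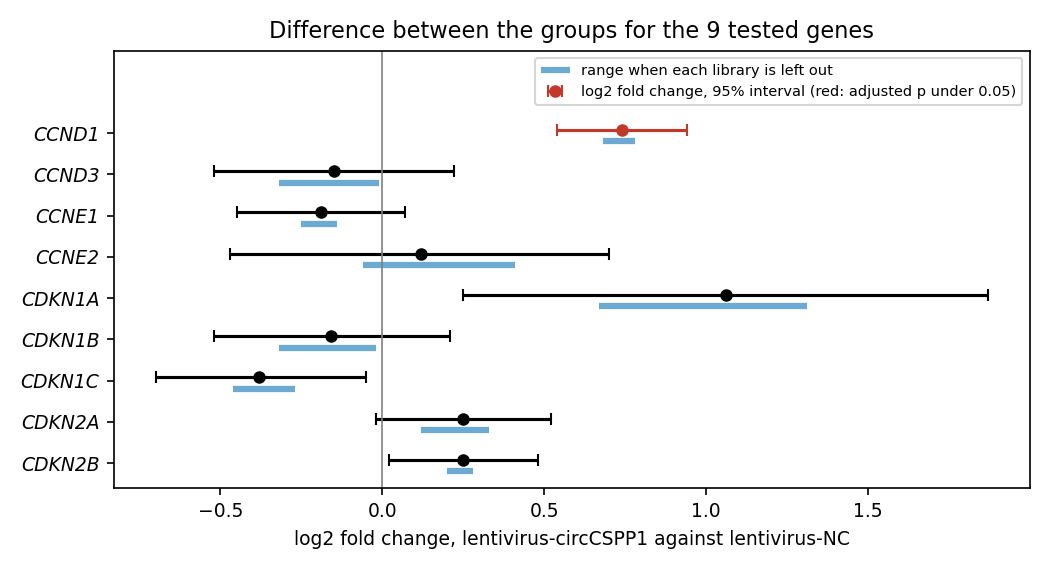
Log2 fold change of the 9 members tested (points, horizontal axis) with its 95% interval from limma (thin lines) and the range when each library was left out in turn (thick bars). CCND1 lies at 0.74 with a narrow leave-one-out range of 0.68 to 0.78, CDKN1A at 1.06 has a range of 0.67 to 1.31, and the range of CCNE2, -0.06 to 0.41, crosses 0.

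In order of level, lentivirus-NC cells had CDKN2A, CCND1, CDKN1B, CDKN1A, CCND3, CDKN2B, CCNE1, CCNE2, CDKN1C and CCND2. Neighbours whose ranges overlapped were CDKN1B with CDKN1A, CDKN1A with CCND3, and CCNE2 with CDKN1C. In lentivirus-circCSPP1 cells CDKN1A and CDKN1B changed places, with ranges that overlapped (41.01 to 72.17 FPKM and 27.22 to 41.99 FPKM), and CCND3 overlapped with CDKN2B. The other neighbours were apart. The ratio of CCND1 to CDKN2A was 0.426, 0.401 and 0.466 in lentivirus-NC and 0.476, 0.716 and 0.645 in lentivirus-circCSPP1, with replicate 1 close to the controls. The ratio of CCND1 to its kinase partner CDK4 was 1.6, 1.65 and 1.74 against 2.06, 1.99 and 2.39.

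The study examines miR-520h as a microRNA that circCSPP1 binds, so the 3′ UTRs of the members were searched for its seed match. The mature sequence (RefSeq, GRCh38.p14, chromosome 19, 53742566 to 53742587, plus strand) is printed 5′ to 3′ with the seed, bases 2 to 8, in capitals.
hsa-miR-520h: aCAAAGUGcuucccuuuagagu
A match was the run ACTTTG on the transcript strand. The 7-base forms add a C before it or an A after it, and the 8-base form has both. Such a match was found in the 3′ UTR of 7 of the 10 members and of 48.5% of the 12233 tested genes with an annotated 3′ UTR. A match of at least 7 bases was in 5 of the 10 members and in 33.1% of the genes. The 8-base form was in 3 members, CCND2, CDKN1A and CDKN2B, and in 5.58% of the genes. These member counts include CCND2, which is not among the tested genes. The 3′ UTRs of the members ran from 531 nt (CCNE1) to 5341 nt (CCND2), and length was not taken into account. CDKN1A held 2 of them, and 0.409% of the genes held 2 or more. CCNE1, CDKN1C and CDKN2A held no match. The windows below are printed 5′ to 3′ on the transcript strand with the match in capitals, for the member that rose and the members with the 8-base form.
CCND1, 7 bases, chr11:69652398-69652427, plus strand, exon 5 of 5: ttgcaagcaggACTTTGAggcaagtgtggg
CCND2, 8 bases, chr12:4300967-4300996, plus strand, exon 5 of 5: cattcgaaaagCACTTTGAaaaattgttcc
CDKN1A, 8 bases, chr6:36686258-36686287, plus strand, exon 3 of 3: taaacagatggCACTTTGAaggggcctcac
CDKN1A, 8 bases, chr6:36686938-36686967, plus strand, exon 3 of 3: ccagttcattgCACTTTGAttagcagcgga
CDKN2B, 8 bases, chr9:22003088-22003117, minus strand, exon 2 of 2: gttaaggatttCACTTTGAaggatacatgc
These are letters in a reference transcript. The 3 tested members shown here had log2 fold changes of 0.74 (CCND1), 1.06 (CDKN1A) and 0.25 (CDKN2B). Of these the CCND1 value passed the test. The tested members with matches not shown had 0.12 (CCNE2, 7 bases), -0.15 (CCND3, 6 bases) and -0.16 (CDKN1B, 6 bases). Members without a match had -0.19 (CCNE1), -0.38 (CDKN1C) and 0.25 (CDKN2A). No relation between the matches and these values was tested.

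Of 109 tested genes in 7 lists of G1 control and its outputs, 8 passed the test (7.34%, against 11.4% of all genes tested). The 5 that were higher were all p53 targets, and the 3 that were lower came from 3 other lists. Without lentivirus-circCSPP1 replicate 1, 27 list genes passed, 16 higher and 11 lower, where 28.5% of all genes tested were called. None of the 9 G1 kinases and activators passed at an adjusted p of 0.05 in limma, and 1 had an unadjusted p under 0.05. CDK4, the partner of D cyclins, measured 92.33, 79.72 and 87.02 FPKM in lentivirus-NC, against 110.22, 128.63 and 99.66 FPKM with lentivirus-circCSPP1. All 3 overexpressing libraries were above the controls, with a log2 fold change of 0.38 (SE 0.113, limma adjusted p = 0.073). CDK6 (-0.16, limma adjusted p = 0.64) and CDK2, the partner of E cyclins (-0.1, limma adjusted p = 0.75), overlapped between the groups, and without lentivirus-circCSPP1 replicate 1 their log2 fold changes were -0.005 and 0.08. Without that library 1 gene of the list passed. The list's median log2 fold change was 0.02. The other INK4 inhibitors, CDKN2C and CDKN2D, were not called, and their median was -0.13, with 0 at an unadjusted p under 0.05.

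Of the 13 pocket proteins, E2F and DP factors, 0 were called in limma, 1 had an unadjusted p under 0.05, and the median was 0.11. RB1 message was present although the line is known to lack the functional protein. It measured 12.83, 12.97 and 10.18 FPKM in lentivirus-NC, against 4.69, 12.61 and 8.87 FPKM with lentivirus-circCSPP1. The low value belonged to replicate 1 of lentivirus-circCSPP1, and the log2 fold change was -0.5 (limma adjusted p = 0.31) with it and -0.16 without it. Without that library 4 genes of this list passed, all higher, where 28.5% of all genes tested were called.

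Of the 15 ubiquitin ligase subunits that act on G1 cyclins and CIP/KIP inhibitors, SKP2 fell and the other 14 did not pass. SKP2, the subunit that recognises p27, measured 20, 17.78 and 20.42 FPKM in lentivirus-NC, against 12.56, 13.85 and 13.76 FPKM with lentivirus-circCSPP1. The groups were well apart, with a log2 fold change of -0.5 (SE 0.102, limma adjusted p = 0.023). Without lentivirus-circCSPP1 replicate 1, 3 genes of the list passed, 1 higher and 2 lower, where 28.5% of all genes tested were called. SKP2 kept a log2 fold change of -0.56 to -0.46 but lost the call on leaving out lentivirus-circCSPP1 replicate 3 or any lentivirus-NC library, where the limma adjusted p was 0.079 without the former and 0.12, 0.074 and 0.11 without replicates 1, 2 and 3 of the latter.

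Of the 27 E2F targets of the G1/S transition, TYMS fell and the rest did not pass. TYMS, the thymidylate synthase that makes dTMP, was 185 ± 11.1 FPKM in lentivirus-NC, against 138 ± 7.32 FPKM with lentivirus-circCSPP1 (SD, n = 3), a log2 fold change of -0.41 (limma adjusted p = 0.02). The median of the list was -0.1. Of the 20 genes of G2 and mitosis, KIF20A, a kinesin of cytokinesis, fell from 114 ± 4.15 FPKM to 84.9 ± 0.856 FPKM (log2 fold change -0.42, limma adjusted p = 0.014). In this list the log2 fold change was below 0 for 18 of the 20 genes, 12 had groups that did not overlap, all lower (20.5% of all genes tested were lower in this way), and the median was -0.27. Without lentivirus-circCSPP1 replicate 1, 5 of the E2F targets (1 higher, 4 lower) and 4 of the G2 and mitosis genes (all lower) passed. In that fit 28.5% of all genes tested were called. With each library left out in turn the log2 fold changes stayed at -0.45 to -0.36 for TYMS and -0.43 to -0.39 for KIF20A, but neither passed without lentivirus-circCSPP1 replicate 3 (limma adjusted p of 0.077 and 0.064). The same held without lentivirus-NC replicate 1 (0.083 and 0.073), replicate 2 (0.084 and 0.087) or replicate 3 (0.097 and 0.066).

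Of 23 p53 targets other than CDKN1A, 5 passed as higher and 0 as lower, against 4.69% and 6.66% of all genes tested. The list was mixed in direction, with log2 fold changes above 0 for 13 genes and below 0 for 10, and a median of 0.31. Groups that did not overlap were higher for 11 genes and lower for 4, against 16.0% and 20.5% of all genes tested. Without lentivirus-circCSPP1 replicate 1, 10 passed, 9 higher and 1 lower. In that fit 28.5% of all genes tested were called, 1624 higher and 1888 lower. SESN2, a sestrin that restrains mTORC1, measured 12.46, 12.27 and 11.29 FPKM in lentivirus-NC, against 31.64, 29.27 and 29.16 FPKM with lentivirus-circCSPP1. Its log2 fold change was 1.25 (SE 0.0945, limma adjusted p = 0.0013), and it kept its call under 17 of 17 alternatives. GDF15, a stress-induced secreted factor, was low in both groups, with 0.54, 0.35 and 0.62 FPKM against 3.11, 2.21 and 1.05 FPKM (log2 fold change 1.0, limma adjusted p = 0.039). At these low levels the pseudocount sets the size of the change, which was 1.79 with a pseudocount of 0.1 and 1.96 with 0.01, above the 1.32 of SESN2 under both. GADD45A, which responds to growth arrest and DNA damage, rose by 0.63 (limma adjusted p = 0.028), TNFRSF10B, a TRAIL receptor, by 0.58 (limma adjusted p = 0.01) and PLK3, a stress-responsive kinase, by 0.54 (limma adjusted p = 0.048). SESN2, GDF15, GADD45A and TNFRSF10B are also known to be induced by the ATF4 stress pathway, and the list does not separate the routes. The other 4 lost their calls when certain libraries were left out, with log2 fold changes that stayed at 0.78 to 1.28 for GDF15, 0.51 to 0.72 for GADD45A, 0.52 to 0.62 for TNFRSF10B and 0.41 to 0.62 for PLK3. Without lentivirus-NC replicate 1 the limma adjusted p was 0.12 for GDF15, 0.11 for GADD45A, 0.056 for TNFRSF10B and 0.16 for PLK3, and without replicate 3 it was 0.1, 0.1, 0.051 and 0.15. Without lentivirus-NC replicate 2, GDF15 (0.14), GADD45A (0.064) and PLK3 (0.16) did not pass, nor did GADD45A (0.063) and PLK3 (0.1) without lentivirus-circCSPP1 replicate 3 and GDF15 (0.081) without lentivirus-circCSPP1 replicate 2. GDF15, GADD45A and PLK3 also missed 0.05 with no filter on low values (limma adjusted p of 0.12, 0.078 and 0.099) and with no moderation of the variance (0.15, 0.098 and 0.11). PLK3 narrowly missed it with a filter at a mean of 5 FPKM (0.051), quantile normalization (0.051) and median-ratio scaling (0.05 after rounding). In all, PLK3 lost its call under 10 of 17 alternatives. Over all genes, the fits without a lentivirus-NC library called 300 to 407 genes in place of 1399.

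**Figure D5:**
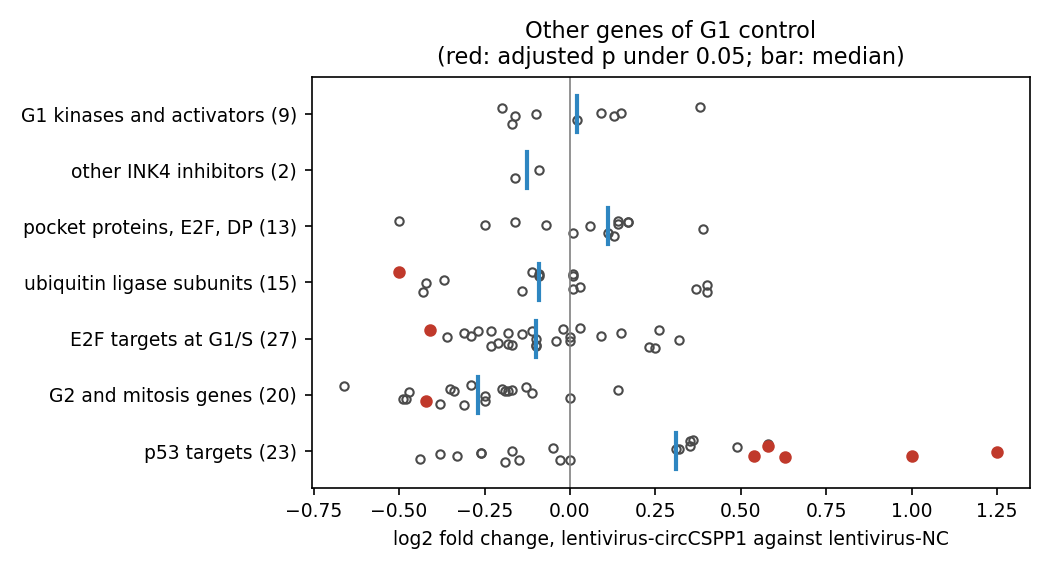
Log2 fold change (horizontal axis) of each tested gene in 7 lists of G1 control and its outputs, with 1 point per gene, red where the limma adjusted p was under 0.05 and a bar at the list's median. The p53 targets have 5 red points, all to the right of 0, and the medians run from -0.27 in the G2 and mitosis genes to 0.31 in the p53 targets.

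The nearest genes of the table on each side of the members were 18 genes apart from the members themselves. Of these 14 were tested, 2 rose and 0 fell, where 4.69% of all genes tested rose and 6.66% fell. MYEOV, which lies 273361 bases from CCND1 at 69294138 to 69367726 on the same strand of chromosome 11, measured 57.31, 53.99 and 58.14 FPKM in lentivirus-NC, against 113.17, 99.03 and 99.62 FPKM with lentivirus-circCSPP1. Its log2 fold change of 0.87 (SE 0.0871, limma adjusted p = 0.0028) was similar in size to that of CCND1. On the other side LTO1, which shares 497 exon bases with CCND1 on the opposite strand (10.3% of those of CCND1), was 9.14 ± 2.44 FPKM and 14.6 ± 2.03 FPKM (log2 fold change 0.64, limma adjusted p = 0.07). BYSL, a ribosome biogenesis factor 1887 bases from CCND3, rose from 40.0 ± 1.33 FPKM to 54.9 ± 6.11 FPKM (log2 fold change 0.44, limma adjusted p = 0.033). The tested neighbours of CCNE1 (C19orf12, URI1) and of CDKN2A (MTAP) had limma adjusted p values of 0.78, 0.67 and 0.99. KCNQ1, a potassium channel gene of the same imprinted domain as CDKN1C and its neighbour, had a mean under 1 FPKM and was not tested, and it measured 0.77, 0.91 and 0.8 FPKM in lentivirus-NC, against 0.15, 0.27 and 0.27 FPKM with lentivirus-circCSPP1.

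Smaller overlaps of exons on the opposite strand were found for CDKN2A with CDKN2B-AS1 (7.9% of its exon bases), and for CDKN1A with DINOL (4.8%). CCND2 shared 13.8% of its exon bases with AC008012.1 on the same strand. Values of these members may hold reads of those genes.

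The 3 tested genes whose log2 values were most like those of CCND1 over the 6 libraries were EID3 (r = 0.9995), POLR3C (r = 0.999) and MED8 (r = 0.9984). These values describe 6 points in 2 groups. EID3, a subunit of the SMC5/6 complex, measured 4.99, 4.26 and 5.13 FPKM in lentivirus-NC, against 8.72, 9.95 and 8.95 FPKM with lentivirus-circCSPP1. POLR3C, a subunit of RNA polymerase III, and MED8, a subunit of Mediator, had log2 fold changes of 0.58 and 0.33, against 0.74 for CCND1.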

How the data were processed

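Polyadenylated RNA of 6 DU145 libraries, 3 lentivirus-NC and 3 lentivirus-circCSPP1, was sequenced from both ends on an Illumina NovaSeq. The authors deposited FPKM values, rounded to 2 decimals, in a table of 19727 genes. The submitters' processing notes name the genome build hg 38, and the aligner, the quantifier, the annotation and the use of strand are not given in the sources used here. FPKM divides by the library total, so a gene's value moves when other genes take more of it. The 20 most abundant genes took 14.9% to 15.2% of the FPKM total of lentivirus-NC libraries and 12.0% to 12.1% of that of lentivirus-circCSPP1 libraries. Depth was computed from transcripts shorter than 800 nt as the step of which 93.2% to 98.3% of their values were whole multiples (within 0.15 of a step). All sample columns were used, so 0 stayed unused. FPKM is not a count, so no count model was fitted.

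The test was limma 3.58.1 under R 4.3.3 on log2(FPKM + 1), two-sided and without covariates, using lmFit and eBayes with a trend. It covered 12322 genes whose mean reached 1 FPKM, with Benjamini-Hochberg adjustment over all of them, and 7405 genes were not tested. A call was an adjusted p under 0.05. The fit was tested on simulated data. Coordinates, GC content, exons and 3′ UTRs came from GENCODE release 29 on GRCh38, which may not be the authors' annotation. The miRNA sequence came from RefSeq (GRCh38.p14). Protein sequences were not analysed here. Figures were drawn with matplotlib 3.10.9.

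The members and lists were chosen with earlier results of these data known. The genes named were the members, their nearest neighbours in the table, RB1, CDK2, CDK4, CDK6 and SKP2, up to 4 called genes of each list with the largest changes, and the 3 genes most like a called member. PLK3, INTS8 beyond its place as a neighbour, and genes in the closing section were chosen once their values had been seen. The alternatives were other pseudocounts, filters and scalings, robust or no moderation, the replicate number as a block, each library left out in turn and, added after seeing the data, a loess correction of each library for GC content and length.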

Additional observations from a re-analysis of the deposited data

How the results depend on the processing

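Of 151 values of the members under the alternatives, 147 kept their direction and their side of an adjusted p of 0.05 in limma, 2 passed it and 2 changed sign. CDKN1A passed without lentivirus-circCSPP1 replicate 1 (1.31) and CDKN2A after the GC and length correction, which was chosen after seeing the data (0.24). CCNE2 ran from -0.06 to 0.41 when each library was left out, with -0.06 and -0.003 without lentivirus-circCSPP1 replicates 2 and 3, and CDK2 ran from -0.22 to 0.08. Of the members, 1 was called, 2 after the correction and 1 to 2 with a library left out. Over all genes 1399 were called, 834 without moderation of the variance, 3385 after the correction and 300 to 3512 with a library left out, the highest of these without lentivirus-circCSPP1 replicate 1. Of the list genes 8 were called, 40 after the correction and 1 to 27 with a library left out. With the replicate number as a block, 923 genes and 5 list genes were called, and SKP2, GADD45A and PLK3 lost their calls (limma adjusted p of 0.061, 0.053 and 0.074) with log2 fold changes of -0.5, 0.63 and 0.54 as before. The design text speaks of pairs without saying what a pair shares, and libraries of the same number deviated together only weakly (correlations of 0.073, 0.0065 and 0.057, with 4 of 6 libraries correlating best with their own number), so the numbers were not taken to pair the samples. A filter at a mean of 5 FPKM left no value for CCNE2, CDKN1C, CDK6 and GDF15. With 3 libraries in each group no exact permutation test could pass 0.05, and the cause of these shifts was not tested.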

Other observations

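After the values of MYEOV had been seen, the genes within 1000000 bases of CCND1 were listed. The table held 19 genes in this span apart from CCND1, of which 12 were tested, with a median log2 fold change of 0.12. Of the 12, 1 rose (MYEOV) and 1 fell, where 4.69% of all genes tested rose and 6.66% fell. The gene that fell was GAL, which encodes the neuropeptide galanin and lies 949912 bases from CCND1, with 70.19, 61.97 and 65.35 FPKM in lentivirus-NC and 47.31, 40.94 and 42.16 FPKM in lentivirus-circCSPP1 (log2 fold change -0.59, limma adjusted p = 0.011). CTTN, which encodes cortactin and lies 743930 bases away, measured 139.93, 140.53 and 147.58 FPKM against 185.16, 162.4 and 178.96 FPKM (log2 fold change 0.3, limma adjusted p = 0.054). FADD, an adaptor of death receptors between CCND1 and CTTN, had a log2 fold change of 0.1 (limma adjusted p = 0.54). FGF3 and FGF4 were listed at 0 in all 6 libraries, and FGF19 was at 0 to 0.13 FPKM.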
